A study of Bos taurus with 4 samples.

Results

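A set of 210 genes had reads in 1 of 4 muscle libraries and none in the other 3. The libraries are called Grass1 and Grass2 (grass-fed steers) and Grain1 and Grain2 (grain-fed steers), after the deposited columns. The members were taken from the 24616 Ensembl genes of the deposited table as those with a pseudo-count of at least 15 in Grass1 and under 0.5 in Grass2, Grain1 and Grain2, the other libraries. These limits were met by 214 genes. RBP2, VIL1, FCGBP and CCL5 met them and were set aside, and CDHR5, which was also to be set aside, did not meet them. A pseudo-count is a read count that edgeR has adjusted to a library size common to all libraries. The adjustment was inverted here, so whole reads are given beside it.

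RNA-Seq was run on mRNA of longissimus dorsi muscle from 4 Aberdeen Angus steers of the closed Wye Angus herd, 2 for each diet, with a library for each steer. All calves shared a diet until weaning and were then assigned at random. The grass diet was forage alone, as pasture or hay of alfalfa, orchard grass and clover. The control steers were finished on a conventional ration of corn, as silage and shelled, with soybean and minerals. Among the steers of the metabolite measurements, per the study's methods, those on grain were younger than those on grass. The ages of the 4 steers sequenced are not stated, so diet and age cannot be told apart in any comparison of diets here. The deposited columns give the diet and a number but not the steer, so no library is matched to a steer here. The reads on genes were between 5683894 and 7447453 per library, and Grass1 had 6776619 of them, fewer than the 7447453 of Grass2.

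The table holds identifiers and no gene names. Names could be paired with 4 of the 210 members through the study's own supplementary gene tables, and 206 members have no name here. All 4 named genes, ALPI, FABP2, CDHR2 and KRT20, are on a list of absorptive enterocyte genes. They were named because they are among the top molecules of the study, which were chosen on these same libraries, so the composition of the names says nothing about that of the other members. The genes set aside by the rule include a goblet cell gene, FCGBP, with 313 reads in Grass1, and a T and NK cell gene, CCL5, with 428, both with 0 reads in the other 3 libraries.

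Absorptive enterocytes line the small intestine. Their surface carries a brush border of packed microvilli, on which digestive enzymes and nutrient transporters sit, and their cytoplasm holds proteins that carry absorbed lipids. Skeletal muscle is not a tissue in which these genes are known for their function. The tissue label of the libraries could not be checked against muscle markers, because none of the listed skeletal muscle genes has a name paired with an identifier here.

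ALPI (ENSBTAG00000012363) is intestinal alkaline phosphatase, an enzyme of the brush border membrane. It had 224 reads in Grass1, and 0 in Grass2, Grain1 and Grain2. Its share of the library was 33.1 reads per 1000000 with an exact binomial 95% interval of 28.9 to 37.7, which covers counting error only. Only Grass1 was high, and the diets overlapped at 0.

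FABP2 (ENSBTAG00000017045) encodes the intestinal fatty acid-binding protein, which carries long-chain fatty acids inside the enterocyte. It had 217 reads in Grass1 and 0 in the other 3 libraries, or 32.0 per 1000000 with an interval of 27.9 to 36.6. The pattern was the one seen for ALPI.

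CDHR2 (ENSBTAG00000025340) is a protocadherin that links the tips of neighbouring microvilli, where its partner is CDHR5. It had 182 reads in Grass1 and 0 in Grass2, Grain1 and Grain2, or 26.9 per 1000000 with an interval of 23.1 to 31.1. Its partner CDHR5 (ENSBTAG00000047914) was read in 3 libraries, with 221 reads in Grass1, 23 in Grass2, 4 in Grain1 and 0 in Grain2, and is not a member. So the microvillar pair differed in whether the second grass-fed library had reads, although both genes had most of theirs in the first.

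KRT20 (ENSBTAG00000007794), a keratin filament protein of mature intestinal epithelial cells, had 146 reads in Grass1 and 0 in the other 3 libraries. Its share was 21.5 per 1000000 with an interval of 18.2 to 25.3. Among the members it had the fifth highest number of reads.

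The member with the most reads has no name here. ENSBTAG00000008505 had 370 reads in Grass1 and 0 in each of the other libraries, or 54.6 per 1000000 with an interval of 49.2 to 60.5. ENSBTAG00000020837, the next without a name, had 131 reads and 0 elsewhere, which is 19.3 per 1000000 with an interval of 16.2 to 22.9. With the 4 named genes between them, these make up the 6 members with the most reads. Gene lengths of the build were not used here, so the reads rank genes by number of reads and not by transcript level.

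**Figure D1:**
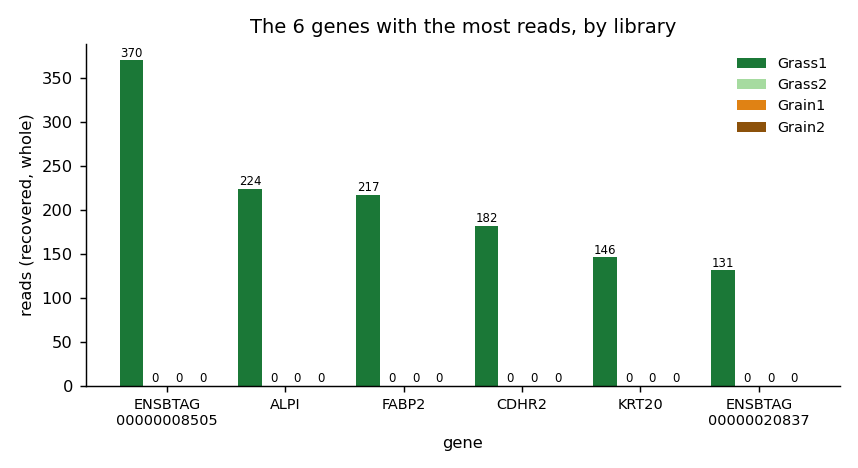
Reads recovered from the deposited pseudo-counts (y axis, reads) in the grass-fed (Grass1, Grass2) and grain-fed (Grain1, Grain2) libraries for the 6 members with the most reads (x axis), with a bar for each of the 4 libraries and the number of reads above it. The bars of Grass1 go from 131 to 370 reads, and the other 3 libraries stand at 0 for every gene shown.

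Within Grass1 these genes were well covered. At least as many reads as ENSBTAG00000008505 were found for 1319 of the 14485 genes read in that library, or 9.11%. For ALPI it was 14.5% of the genes, and for KRT20 21.0%. The whole set reached far lower.

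Over the 210 members, the reads in Grass1 went from 20 to 370, with a median of 33.0 and quartiles of 25 and 44.8. The pseudo-counts that the limits used went from 15.43 to 282.7, with a median of 25.36. Between 20 and 24 reads were counted for 51 members, between 25 and 49 for 116, between 50 and 99 for 33, between 100 and 199 for 7, and 200 or more for 3. Most members were therefore genes of few reads, and the named genes belong to the upper end.

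All members together had 9161 reads, or 0.135% of the reads on genes in Grass1, with a Wilson 95% interval of 0.132% to 0.138%. The 10 members with the most reads held 18.5% of these reads, and the 4 named genes held 8.39%. The reads were thus spread over many genes, with the leading one at 4.04%.

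**Figure D2:**
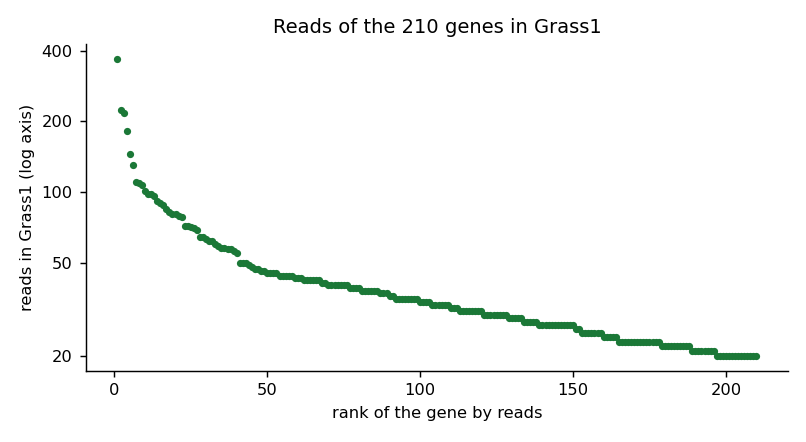
Reads in Grass1 (y axis, log scale) of the 210 genes, ordered by their number of reads (x axis, rank), with a point per gene. The points fall from 370 reads to 20 reads, and the median is 33.0.

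The limits lie in a continuous series of values. The lowest members had a pseudo-count of 15.43, which is 20 reads, and 14 members stood there. Just outside, 14 genes with no read in the other libraries had 14.66, which is 19 reads. On the other limit, the nearest genes outside had a single read in another library, at a pseudo-count of 0.599. All members had 0 reads in the other 3 libraries, and the lowest value that a single read took was above the limit of 0.5.

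A count of 0 allows an expected count of up to 3 reads in a library, which is 0.403 per 1000000 in Grass2. Against that floor, the share of reads of the members was at least 7.327-fold higher in Grass1 than in Grass2 for the lowest member and at least 135.5-fold higher for the highest. The bounds here and by diet below take the reads of Grass1 as counted, so the counting error of those reads is not included. The bound was at least 82.1-fold for ALPI, at least 79.5-fold for FABP2, at least 66.7-fold for CDHR2 and at least 53.5-fold for KRT20. That the libraries of the 2 grass-fed steers differ for every member is set by the rule.

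With the reads of a diet pooled and 3 reads over Grain1 and Grain2 together as the floor, the share on grass was at least 64.1-fold higher for ALPI, at least 62.1-fold for FABP2, at least 52.1-fold for CDHR2 and at least 41.8-fold for KRT20. These are shares of the reads on genes. With the effective library sizes of the deposited values, the bounds were at least 41.2-fold for ALPI and at least 26.9-fold for KRT20. The bounds rest on Grass1 alone. Without it, no member has a read and no fold can be given. In each grass-fed pair 1 of the 2 values is 0, so the SD of every member is larger than its grass-fed mean.

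Other genes in the same range of values were mostly read at a similar value in both grass-fed libraries. In the range of pseudo-counts that the members take in Grass1 there were 7391 genes, of which the members are 2.84%. Among the 7179 genes of that range that are neither members nor set aside, the value in Grass2 was a median of 94.6% of that in Grass1, with quartiles of 59.1% and 132%. Of those genes, 97, or 1.35%, were under 0.5 in Grass2 and had reads on grain. FGB (ENSBTAG00000022120), the fibrinogen beta chain made by the liver, is one of them, with 21 reads in Grass1, 0 in Grass2, 1441 in Grain1 and 86 in Grain2.

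Of the 8833 genes with at least 15 in Grass1, 7748 were at or above 0.5 in all the other libraries. Under 0.5 in all 3 were 214 genes, the members with the 4 set aside. The patterns that lacked Grass2 but had a grain-fed library were rarer, with 40 genes found in Grain2 only, 35 in Grain1 only and 25 in both. The pattern of the members was therefore the most frequent among the genes that Grass2 lacked, 214 of 314.

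The members are the part of a wider set that had no read in Grass2. There were 357 genes, with the set-aside genes left out, that had at least 15 in Grass1 and no read in either grain-fed library. Grass2 had 0 reads for the 210 members, or 58.8% of them, 1 to 3 reads for 51 genes and 4 or more for 96. Where it had reads, its value was a median of 15.7% of that of Grass1. It reached 25% of the value of Grass1 for 54 genes and was above it for 10.

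LCK and GIMAP7, both genes of lymphocytes, belong to that wider set. LCK (ENSBTAG00000012695), a kinase of T-cell receptor signalling, had 127 reads in Grass1 and 7 in Grass2, and GIMAP7 (ENSBTAG00000008550), a small GTPase, had 170 and 5. Both had 0 reads on grain. Their reads in the second grass-fed library keep them out of the set.

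**Figure D3:**
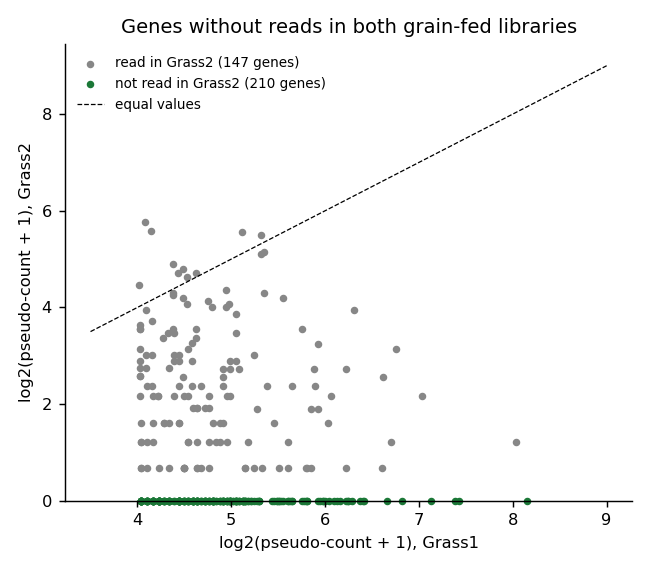
The 357 genes with at least 15 in Grass1 and no read in either grain-fed library, as log2(pseudo-count + 1) in Grass1 (x axis) and Grass2 (y axis), with a point per gene and a dashed line of equal values. The 210 members lie at 0 on the y axis by the rule, and of the 147 other genes 10 lie above the line.

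The same limits were put on each other library, as a description. They were met by 0.869% of the 24616 genes for Grass1, set-aside genes included, by 11 genes or 0.0447% for Grass2, by 44 or 0.179% for Grain1, and by 56 or 0.227% for Grain2. Grass1 thus had the most such genes and the other grass-fed library the fewest. Nothing was tested here, since each library is a single steer.

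Genes of 100 reads or more were also counted in each set. They were 10 of the 210 members, or 4.76%. With the 4 set-aside genes, which all had over 100 reads, they were 14 of 214, or 6.54%. For Grain1 and Grain2, where no gene was set aside, they were 11 of 44 and 11 of 56, or 25% and 19.6%. No gene reached 100 reads for Grass2. The median was 33.0 reads for the members, 45.5 for Grain1, 33.0 for Grain2 and 38.0 for Grass2. A pseudo-count of 15 stands for fewer reads on grain, where the lowest genes had 12 reads, than on grass.

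The share of genes read in a single library was therefore compared at equal numbers of reads, in ranges up to 499 reads. Set-aside genes within these ranges are included. RBP2, also set aside, lies above them, with 523 reads in Grass1 and 0 elsewhere. Among genes with 20 to 29 reads in Grass1, 82 of 1178 or 6.96% had no read elsewhere, against 0.297% in Grass2, 0.61% in Grain1 and 0.946% in Grain2. At 30 to 49 reads the value was 5.22%, against 0.292%, 0.559% and 1.05%. At 50 to 99 reads it was 1.64%, against 0.22%, 0.708% and 0.689%. So up to 99 reads the first grass-fed library lay above all others.

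At 100 to 199 reads the order changed, to 0.419% in Grass1, 0% in Grass2, 0.538% in Grain1 and 0.642% in Grain2. These were 7 of 1669 genes in Grass1, 0 of 1530 in Grass2, 6 of 1116 in Grain1 and 8 of 1247 in Grain2. At 200 to 499 reads, the values were 0.442%, 0%, 0.482% and 0.326% in the same order, from 6, 0, 5 and 3 genes. For genes of 100 to 499 reads, Grass1 was thus within the range of the grain-fed libraries or near it, but these shares rest on few genes.

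Below the limit of the rule the difference went on. At 10 to 19 reads, 186 of 1778 genes or 10.5% were read in Grass1 only, against 3.11% for Grass2, 0.931% for Grain1 and 1.35% for Grain2. With any number of reads, 1382 genes were read in Grass1 only, 624 in Grass2 only, and 346 and 351 in the grain-fed libraries. Grass1 also had reads for the most genes, 14485 or 58.8% of the table, against 13487, 11625 and 11201. These numbers move together with the members, and their part in the result was not tested.

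**Figure D4:**
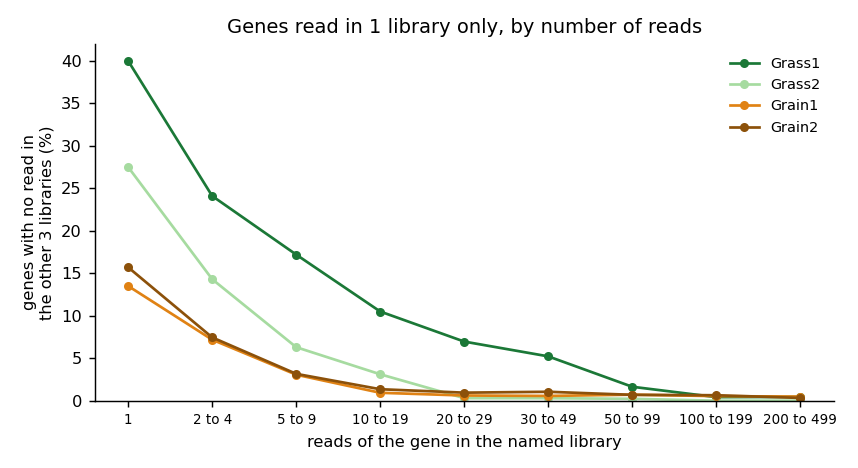
Percent of genes with no read in the other 3 libraries (y axis) by the number of reads of the gene in the named library (x axis, ranges of reads), with a line for each of the 4 libraries. Grass1 lies highest up to 50 to 99 reads, where it stands at 1.64%, and meets the grain-fed libraries at 100 to 199 reads.

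Within a diet, the libraries were also set against their partners, for genes with at least 15 in the library and no read in the other diet. From Grass1, 210 of 357 genes or 58.8% were absent from its partner and 15.1% reached 25% of the value there. From Grass2, 11 of 96 or 11.5% were absent from Grass1 and 49% reached that level. From the grain-fed libraries, 44 of 55 or 80.0% and 56 of 69 or 81.2% were absent from the partner, so a gene of a single diet was missing from the partner more often on grain than from Grass1, and least often from Grass2. No test was run on these shares.

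In the comparison of diets, the members are the genes on which the limits were set, so the counts are given as a description and carry no evidence. With limma on log2(value + 1) per 1000000, 91 of the 210 members passed the filter on a mean of at least 1 per 1000000, and they passed it through Grass1 alone. Of these 91, 0 passed an adjusted p-value of 0.1 (limma with Benjamini-Hochberg adjustment), and neither did any other of the 10461 genes tested (0%). An unadjusted p-value under 0.05 was reached by 918 of all genes and by 0 of these members. Their log2 fold change of the grass-fed over the grain-fed group went from 1.17 to 2.71 with a median of 1.33, against 0.11 over all genes. The medians of members and of all genes were 1.4 and 0.67 with columns rescaled to the same total. They were 1.77 and 0.14 with a pseudocount of 0.5, and 0.61 and 0.05 with a pseudocount of 4. The log2(value + 1) scale understates the change of genes of few reads. Without Grass2 the grass-fed group is Grass1 alone, the library on which the members were chosen, and only the grain-fed libraries give the spread. In that limma fit 133 members passed the filter, and an unadjusted p-value under 0.05 was found for all 133 and for 609 of 10226 genes in all. The choice of the members sets this result.

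In the likelihood ratio test of edgeR on the recovered reads, the test family of the study, 4 of the 210 members had an adjusted p-value under 0.1, all higher in the grass-fed group, where 0.199% of the 24616 genes were called in that direction. They were ENSBTAG00000008505, ALPI, FABP2 and CDHR2. Over all genes this run called 173, with 49 higher and 124 lower on grass. The study reported most of its called genes as higher on grass, so its balance of directions was not reproduced here. Unadjusted, all 210 members had a p-value under 0.05 in this test, as did 2196 of all genes. The median log2 fold change of the members was 6.73. The members were chosen on these same libraries, so their results in this test carry no evidence. With 2 steers a diet, the smallest p-value that an exact permutation test (two-sided) allows is 0.333.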

How the data were processed

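The authors aligned 50-base reads of mRNA with Bowtie to BosTau6 (UMD3.1), counted them per gene with GenomicRanges and analysed them with edgeR; no version is given in the sources used here. As a signal, the table deposited by the authors holds edgeR pseudo-counts, that is, counts adjusted to an effective library size common to all 4 libraries, with gene means fitted within each diet. This adjustment was inverted with a fitted dispersion of 0.605, which gave whole reads for 100% of the genes that had any, at a relative tolerance of 1e-05. The inversion and the tests were tested on simulated data.

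The members and lists were chosen with earlier results of these data known. The limits were applied to the deposited values. Diets were compared on log2(value + 1), with values per 1000000 of the mean column total, in limma 3.58.1 with a mean-variance trend, at an adjusted p-value under 0.1. After seeing the data, edgeR 4.0.16 (R 4.3.3) was also run on the recovered reads, with its quasi-likelihood test and with its likelihood ratio test. Each library is a steer. Intervals cover counting error only, and floors cover only the counting error of a count of 0.

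The genes named are the members with the most reads that have a name and the 2 leading members without one. RBP2, VIL1, FCGBP and CCL5 are named because the rule sets them aside. CDHR5, LCK, GIMAP7 and FGB are no members and were chosen after their values were seen. Names come from the primer table of the study and from the log ratios of its top molecules, which matched 1 identifier each for 20 genes; for the 5 of these that were named elsewhere too, the name was the same. Of 18 lists of cell type markers, 5 hold any gene with a name: absorptive enterocyte (7 of 73, with 4 members), goblet and secretory (1 of 26), T and NK lymphocyte (3 of 75), hepatocyte (3 of 30) and epidermis (2 of 21). The last 4 have 0 members; FCGBP of the goblet list and CCL5 of the T and NK list had the pattern but were set aside by the rule. The other 13 lists have no gene with a name. No promoter or protein sequences were used here.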

Additional observations from a re-analysis of the deposited data

How the results depend on the processing

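The number of genes read in Grass1 only was 210. It was 315 with a minimum of 10 in place of 15, 152 with 20, 76 with 30 and 27 with 50, and each stricter set lies within the 210. With a ceiling of 1 or 2 in the other libraries it was 234 or 301. With 15 recovered reads and 0 elsewhere it was 280, as it was when each column was rescaled to an equal total. With a library left out it went from 245 without Grain1 to 357 without Grass2, and it was 250 without Grain2. Without Grass1 there are no members. The 0 genes called between the diets by limma became 122 without a filter on low values, 112 up and 10 down on grass, with 0 of the members; the cause was not tested. On the recovered reads, edgeR's likelihood ratio test called 173, with 49 up and 124 down. The quasi-likelihood test of edgeR called 0 of 9533 genes, among which 942 had an unadjusted p-value under 0.05, and its filter kept none of the members. Limma called 0 genes with either other pseudocount, a stricter filter, rescaled columns, no trend or any library left out. No paired analysis was possible because the animal numbers in the labels differ for all 4 steers, and the numbers 1 and 2 of the libraries only tell the columns of a diet apart. Promoter motifs were not run. A gene under about 20 reads in Grass1 lies outside the limits, and 0 reads elsewhere do not exclude an expected count of up to 3.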
